A study of Mus musculus with 6 samples.

Results

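The p53 pathway was followed through 33 genes chosen by name, namely Trp53, which encodes p53, its main inhibitors Mdm2 and Mdm4, and genes that p53 is known to switch on for cell cycle arrest, apoptosis, autophagy, stress defence or DNA repair. All 33 were found among the 21878 genes of the table by their symbols, and 31 were high enough to be tested. RNA was measured in 6 libraries of HT22 cells: 3 libraries were controls and the other 3 had been given 120 µM aluminum maltolate for 24 h, here called Al; aluminum maltolate is a chelate that keeps aluminum dissolved at neutral pH. The libraries are the input fractions of an m6A immunoprecipitation experiment, and the labels describe each group as biological triplicates. The label letter of the treated samples is not spelled out, and they were read as Al because the series names control and Al-treated cells as its groups. The study describes a control in plain medium and a separate maltol control, and the labels call the sequenced group control only. No library labelled as maltol alone was analysed here, so a part of the carrier in the differences was not tested. HT22 is an immortalized mouse hippocampal line, a subclone of cells made with a temperature-sensitive large T antigen of SV40, a viral protein that binds p53.

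p53 is a transcription factor that is held low by Mdm2, a ubiquitin ligase that marks it for degradation, and by the related protein Mdm4. When DNA damage or other stress frees p53 from these inhibitors, it binds response elements near its target genes and raises their transcription, Mdm2 included, which closes a feedback loop. Much of this control acts on the p53 protein, which was not measured here. The study asked whether Al drives these cells into senescence, and p21, the cyclin-dependent kinase inhibitor encoded by the p53 target Cdkn1a, was one of its markers. The comparison below sets the other genes of the pathway beside Cdkn1a.

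The libraries rested on 38059492, 43422481 and 44556768 reads in control and on 26670978, 21857904 and 21125631 reads in Al, so low genes were measured less precisely in Al. Levels are given as FPKM, which counts fragments per unit of gene length and of library depth, divided by a size factor of the library, called scaled FPKM. These factors were 1.18, 1.21 and 1.17 in control and 0.802, 0.815 and 0.932 in Al. Leaving them out or using TPM moved every gene nearly alike. Without them the median log2 fold change of all genes tested was -0.43 in place of 0.03, and as TPM it was -0.72. Quantile normalization moved genes by unlike amounts: the log2 fold change of Trp53 went from 0.56 to -0.02 and that of Fas from 0.13 to 0.44. Of 12 neuron markers, 10 were below 1 FPKM in every library and Nefm and Snap25 had 0 reads, while the 6 fibroblast markers summed to between 2075 and 5116 scaled FPKM. The summed neuron markers were 6.57 to 8.12 in control and 4.84 to 8.28 in Al, and the fibroblast markers were 2075 to 3352 in control and 3580 to 5116 in Al. The fibroblast sum is carried by its abundant members: of the 6 genes 1 was called higher and 3 lower, with a median log2 fold change of -0.43. The summed levels of astrocyte markers were 27.7 to 35.9 and 36.7 to 46.3, with 1 called higher and 1 lower of 4 tested (median -0.29), of microglia markers 33.6 to 41.4 and 23.9 to 90.5, with 1 of 4 called higher (median 0.09), and of oligodendrocyte markers 0.277 to 0.525 and 0.874 to 1.72, with 1 of 2 called higher (median 1.27). The part of these shifts in the results was not tested, and in bulk RNA fewer cells of a type and less RNA per cell cannot be told apart.

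Genes of the pathway moved in both directions in Al. Mdm2, 4 genes of arrest and growth control, 5 genes of apoptosis and the stress gene Sesn2 rose, while 3 genes of DNA repair and 3 of autophagy and stress fell. A gene was called at an unadjusted limma P under 0.05 with a log2 fold change beyond 0.58, the thresholds of the study. By this rule 11 of the 31 tested genes (35.5%) were higher in Al, beside 26.2% of all 12889 genes tested, and 6 (19.4%) were lower, beside 24.4% of all genes. The share that fell was under that of all genes, and neither share was tested against the background, so the counts alone do not set the members apart. The median log2 fold change was 0.37 over the 31 genes and 0.03 over all genes. At a Benjamini-Hochberg adjusted P under 0.05 and any fold change, 16 of the 31 genes were higher (32.2% of all genes) and 10 were lower (29.9% of all genes). The 3 Al libraries all lay above the 3 control libraries for 16 of the 31 genes (35.1% of all genes) and all below them for 10 (33.1% of all genes). An exact two-sided permutation test of 3 against 3 samples cannot give a P below 0.1, which is the value of each separated gene.

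**Figure D1:**
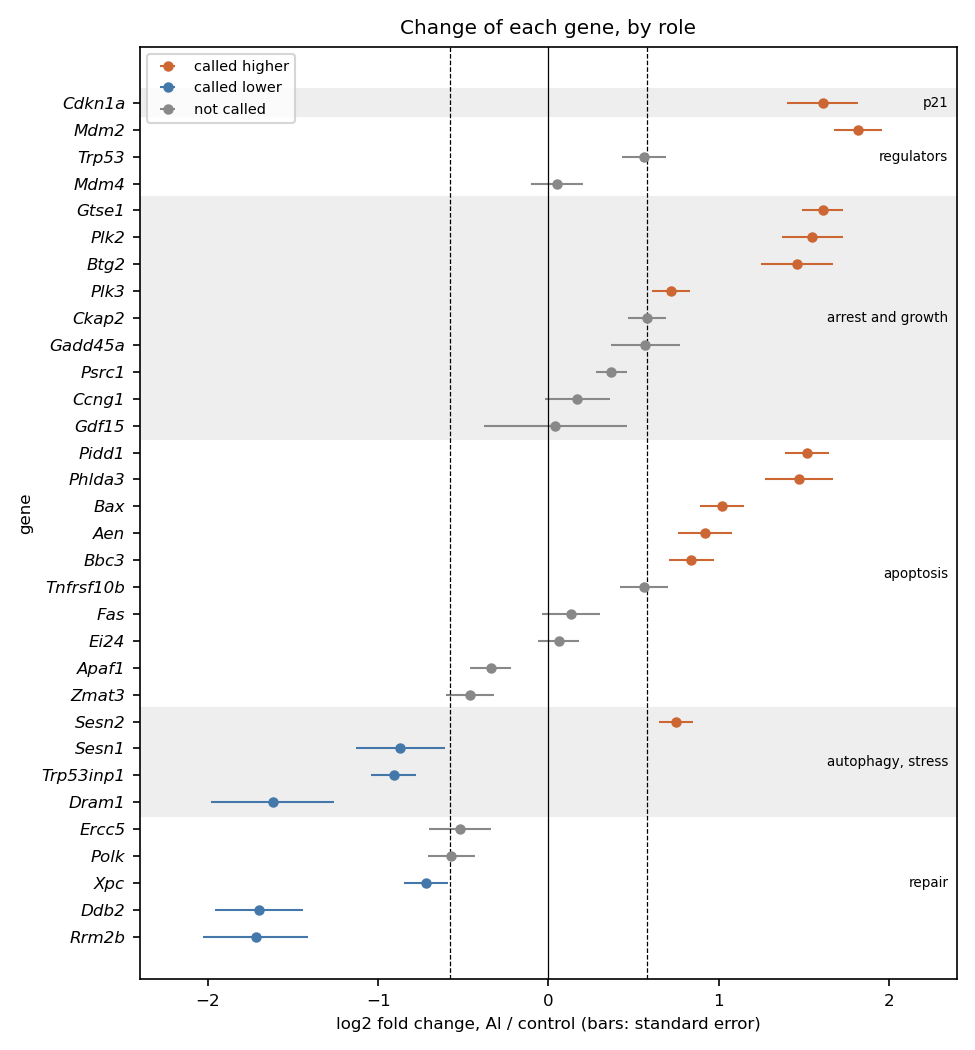
The log2 fold change (Al / control) of Cdkn1a and the 31 tested p53 pathway genes is shown by role, with bars for the standard error (n = 3 libraries per group) and dashed lines at the call threshold of 0.58 in each direction. With size factors the called genes of arrest and of apoptosis lie to the right of 0, and all 5 repair genes lie to the left.

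Cdkn1a, the reference for the pathway, was at 90.5, 88.1 and 129 scaled FPKM in control and at 319, 381 and 239 in Al. The groups did not overlap, and its log2 fold change was 1.61 (SE 0.21, adjusted P = 0.000238 by limma), a 3.05-fold higher level in Al. No scaling ended this call, and its log2 fold change lay between 0.82 and 1.80 over 19 alternative settings.

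Among the regulators, Mdm2 rose most of all 31 tested genes. It was at 9.19, 9.26 and 11.5 scaled FPKM in control and at 35.6, 40.7 and 30.7 in Al, with each Al library far above each control library. The log2 fold change of 1.82 (SE 0.14, adjusted P = 1.82e-05) is a 3.54-fold higher level. Trp53 itself was at 84.6, 84.1 and 88.1 in control and at 143, 133 and 106 in Al, and its groups did not overlap. Its log2 fold change of 0.56 (SE 0.13, adjusted P = 0.00546) was just under the fold threshold, and its direction depended on the scaling: it was 0.07 on FPKM as deposited, -0.02 after quantile normalization and -0.23 as TPM. Without Al replicate 3 it was 0.70 and was called. Mdm4 did not separate the groups, with 8.02, 7.47 and 6.09 in control and 7.17, 6.61 and 8.46 in Al (log2 fold change 0.05, SE 0.15, adjusted P = 0.802).

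Of the 9 genes of arrest and growth control, 4 rose (44.4%, beside 26.2% of all genes). All 9 had a log2 fold change above 0 with size factors, but Ccng1, Gdf15 and Psrc1 were below 0 on FPKM as deposited, and as TPM Gtse1, Plk2 and Btg2 alone were above 0. Plk2, a polo-like kinase that answers to stress, was the most abundant of these after treatment, with 99.8, 97.1 and 120 scaled FPKM in control and 367, 340 and 236 in Al. Its log2 fold change was 1.55 (SE 0.18, adjusted P = 0.000143). Gtse1, a microtubule-associated protein of G2 and S phase that binds p53, went from 27.3, 28.2 and 33.5 to 92.1, 98.9 and 80.1. That is a log2 fold change of 1.61 (SE 0.12, adjusted P = 1.87e-05), equal in size to that of Cdkn1a. Btg2, an antiproliferative gene, was at 6.06, 5.62 and 7.29 in control and at 19.5, 22.1 and 12.4 in Al (log2 fold change 1.46, SE 0.21, adjusted P = 0.000389). Plk3, another polo-like kinase, rose less, from a mean of 11.2 ± 1.13 to 18.5 ± 1.45 (SD, n = 3), with a log2 fold change of 0.72. The calls of Plk2, Gtse1 and Btg2 stood under all 19 settings, whereas Plk3 was at 0.24 on FPKM as deposited, 0.57 after correction for gene length and -0.06 as TPM, and was not called in those 3.

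Gadd45a, a growth arrest and DNA damage gene, and Ckap2, a spindle protein, lay at the threshold and were not called. Gadd45a was at 50.8, 64.7 and 60.6 in control and at 117, 83.0 and 67.2 in Al, with a log2 fold change of 0.57 (adjusted P = 0.0308). It was called when any of control replicate 2, control replicate 3, Al replicate 2 or Al replicate 3 was left out, with log2 fold changes of 0.59 to 0.77. Ckap2 was at 25.8, 27.2 and 26.4 in control and at 36.9, 45.3 and 36.8 in Al, and its log2 fold change of 0.58 became a call without control replicate 2 (0.58), Al replicate 1 (0.63) or Al replicate 3 (0.64). Psrc1, a spindle gene, was higher in each Al library by a smaller amount (log2 fold change 0.37, adjusted P = 0.0069). Ccng1, the cyclin G1 gene and a classical p53 target, was among the most abundant members yet overlapped between groups, with 72.6, 81.9 and 103 in control and 98.1, 117 and 75.4 in Al (log2 fold change 0.17, adjusted P = 0.459). Gdf15, a secreted stress cytokine, was low at 1.50, 1.63 and 4.13 in control and 3.72, 1.64 and 1.81 in Al. Its log2 fold change of 0.04 had a standard error of 0.42, so a change of moderate size could not have been resolved.

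**Figure D2:**
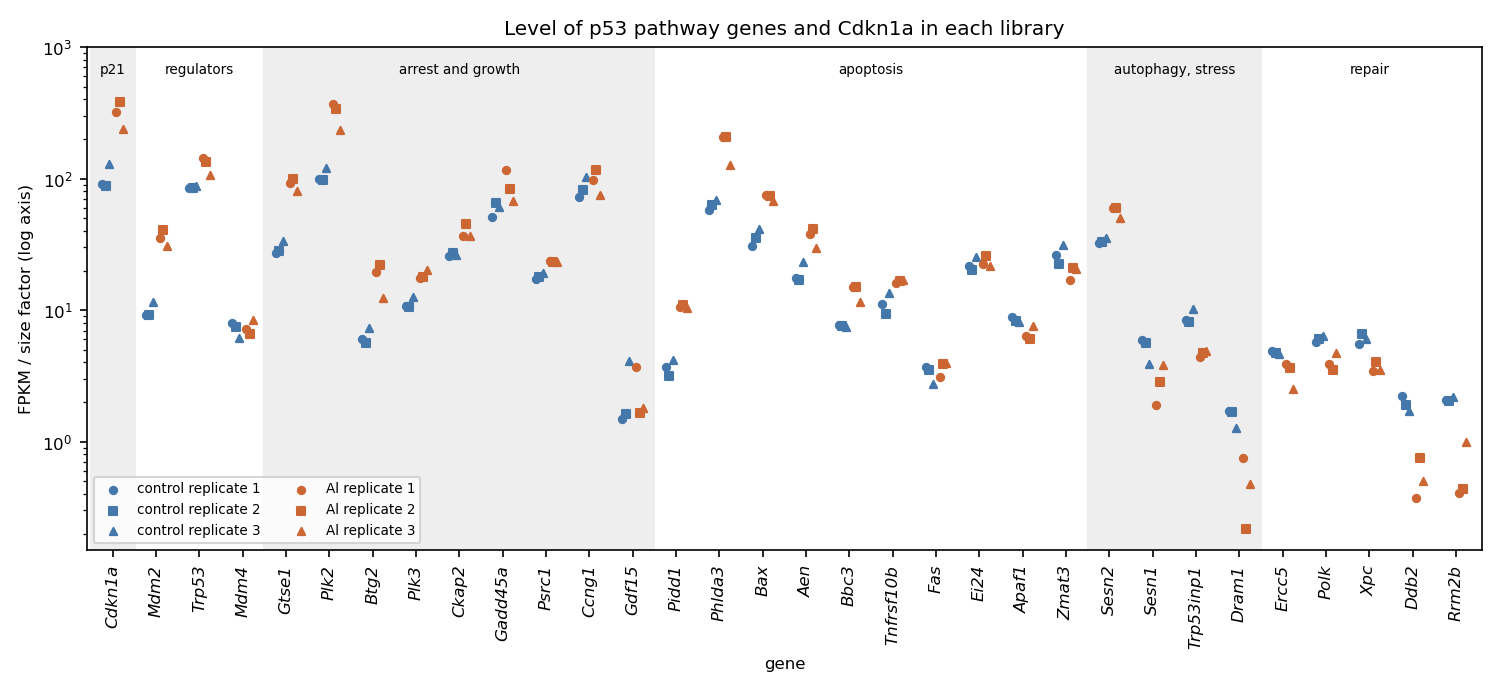
Scaled FPKM (log axis) of Cdkn1a and the 31 tested p53 pathway genes is plotted for each of the 6 libraries, ordered by role, with control in blue and Al in orange and a marker shape for each replicate number. Mdm2, Gtse1, Plk2, Phlda3 and Pidd1 show clear gaps between groups, while Ccng1, Mdm4, Fas and Ei24 mix, and the low levels of Dram1, Ddb2 and Rrm2b scatter more among the Al libraries than the controls.

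Of the 12 apoptosis genes, 10 were tested, 5 rose (50%, beside 26.2% of all genes) and 0 fell (24.4% of all genes). Bax, the pore-forming effector of mitochondrial apoptosis, was at 30.5, 35.5 and 41.6 scaled FPKM in control and at 74.6, 74.3 and 67.5 in Al. The groups were well apart, and the log2 fold change was 1.02 (SE 0.13, adjusted P = 0.000183). Bbc3, which encodes PUMA, an activator of Bax, went from 7.67, 7.56 and 7.49 to 15, 14.9 and 11.5 (log2 fold change 0.84, SE 0.13, adjusted P = 0.000496). Pidd1, the scaffold of the PIDDosome that activates caspase-2, was at 3.67, 3.13 and 4.16 in control and at 10.6, 10.9 and 10.3 in Al. With the 3 Al libraries this close together, its log2 fold change was 1.52 (SE 0.13, adjusted P = 3.3e-05). Phlda3, a pleckstrin homology protein that restrains Akt, was the most abundant of the group, at 57.5, 63.0 and 69.2 in control and 207, 207 and 126 in Al (log2 fold change 1.47, SE 0.20, adjusted P = 0.000269). Aen, an exonuclease of apoptosis, went from 17.6, 16.8 and 23.3 to 37.8, 41.7 and 29.7 (log2 fold change 0.92, SE 0.16, adjusted P = 0.0013).

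Pidd1 and Phlda3 were called under all 19 settings. Bax, Bbc3 and Aen were not called on FPKM as deposited, where their log2 fold changes were 0.53, 0.36 and 0.43, nor as TPM, where they were 0.23, 0.07 and 0.13; all of these lay above the median of all genes under the same scaling. The death receptor genes did not pass. Tnfrsf10b was higher in each Al library (11.1, 9.41 and 13.6 against 16, 16.7 and 17), and its log2 fold change of 0.56 (adjusted P = 0.00689) became a call without control replicate 3 (0.68) or Al replicate 1 (0.59). Fas was at 3.72, 3.52 and 2.75 in control and 3.09, 3.89 and 3.96 in Al, overlapping, with a log2 fold change of 0.13 (adjusted P = 0.529). Ei24, an endoplasmic reticulum protein, was likewise at 0.06 (adjusted P = 0.697). Apaf1, the core of the apoptosome, and Zmat3, an RNA-binding zinc finger protein, pointed the other way, at -0.34 (adjusted P = 0.0376) and -0.46 (adjusted P = 0.0212), under the fold threshold and with Al below control in every library. Both were called lower on FPKM as deposited (-0.82 and -0.94) and as TPM (-1.11 and -1.24), and Zmat3 also after quantile normalization (-0.62) and without control replicate 2 (-0.58).

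A pair of apoptosis genes was at the floor of detection. Pmaip1, which encodes NOXA, a BH3-only protein, had 0 reads in all 6 libraries, and a count of 0 allows up to 3 expected reads per library, by counting error alone. Perp, a membrane protein, had between 0 and 4 reads. No change was detectable in either at this depth.

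Of the 4 autophagy and stress genes, 1 rose (25.0%) and 3 fell (75.0%), beside 26.2% and 24.4% of all genes. Sesn2, a sestrin that restrains mTORC1, was at 32.5, 33 and 35.1 scaled FPKM in control and at 60.0, 59.8 and 50.5 in Al, a log2 fold change of 0.75 (SE 0.10, adjusted P = 0.000315). Sesn1, its relative with the same kind of function, was at 5.94, 5.67 and 3.89 in control and at 1.90, 2.83 and 3.80 in Al, a log2 fold change of -0.87 (SE 0.26, adjusted P = 0.0176). The highest Al library and the lowest control library of Sesn1 nearly touched, at 3.80 and 3.89. Sesn2 was not called on FPKM as deposited (0.27), after quantile normalization (0.41) or as TPM (-0.03), and Sesn1 was not called after quantile normalization (-0.58). Sesn2 is also a known target of ATF4, a transcription factor of the stress response. Trp53inp1, which promotes autophagy and p53 phosphorylation, fell from 8.42, 8.14 and 10.2 to 4.42, 4.73 and 4.90 (log2 fold change -0.91, SE 0.13, adjusted P = 0.000362). Dram1, a lysosomal protein of p53-driven autophagy, was low, at 1.70, 1.68 and 1.28 in control and at 0.751, 0.217 and 0.473 in Al. Its log2 fold change was -1.62 (SE 0.36, adjusted P = 0.00401), with as few as 12 reads in a library. Trp53inp1 and Dram1 were called lower under all 19 settings, with Dram1 at -0.80 with a pseudocount of 1 and at -2.29 as TPM.

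All 5 repair genes were lower in each Al library than in each control library, where 33.1% of all genes were, and 3 of them passed the fold threshold (60.0%, beside 24.4% of all genes). Their log2 fold changes were below 0 under each scaling and correction tried. Ddb2 (chr2:91211545-91237132 in RefSeq on GRCm38.p6), the damage sensor of global nucleotide excision repair, was at 2.21, 1.89 and 1.71 scaled FPKM in control and at 0.371, 0.751 and 0.503 in Al. Its log2 fold change was -1.70 (SE 0.26, adjusted P = 0.000599), a level 3.25-fold lower, from 16 to 201 reads. Rrm2b (chr15:37923952-37961119), the p53-induced subunit of ribonucleotide reductase, went from 2.09, 2.03 and 2.18 to 0.405, 0.440 and 0.999, a log2 fold change of -1.72 (SE 0.31, adjusted P = 0.00131). Xpc, which recognizes lesions in the same repair route as Ddb2, went from 5.52, 6.58 and 6.07 to 3.46, 4 and 3.48 (log2 fold change -0.72, SE 0.13, adjusted P = 0.00164). Polk, a translesion DNA polymerase, was at -0.57 (SE 0.14, adjusted P = 0.00775) and Ercc5, the nuclease XPG, at -0.52 (SE 0.18, adjusted P = 0.03), both under the fold threshold. Polk was called lower without control replicate 1 (-0.63), control replicate 2 (-0.59) or Al replicate 3 (-0.68), with a pseudocount of 0.01 (-0.58) and with voom (-0.58), and Ercc5 without Al replicate 1 (-0.64). On FPKM as deposited they were called at -1.05 and -0.99, and as TPM at -1.34 and -1.29. Ddb2 and Rrm2b were called under all 19 settings, and Xpc was lost after quantile normalization (-0.44).

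Some of these values share sequence with neighbours. Ddb2 shares 652 of its exon bases (23.8%) with the opposite-strand gene Acp2, which encodes a lysosomal acid phosphatase and which also fell, with a log2 fold change of -1.26 (adjusted P = 4.99e-05). Rrm2b shares 734 of its exon bases (8.04%) with the antisense gene Gm49085 and has a near copy, Gm8616, Gadd45a shares 337 of its bases (19.1%) with E230016M11Rik on the other strand, and Bax shares 192 of its bases (12.2%) with Gm45808 on its own strand. Ei24 shares 324 of its bases (6.66%) with Gm26787 and Cdkn1a 273 of its bases (7.68%) with AC167363.2. Mdm4 has the copy Mdm4-ps and Tnfrsf10b the copy Gm15574. The kit marks strand, but whether the counting used it is not given in the sources used here, so reads in the shared stretches cannot be assigned to a gene or its partner with certainty.

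Features of the genes that did not enter their choice also differed between the called groups. The 11 genes that rose had a median GC content of 57.9% and a median length of 2780 bases, and the 6 that fell had 47.0% and 3486 bases, beside 50.5% and 3288 bases over all genes tested. All genes called higher had medians of 50.8% and 2795 bases and all called lower 50.2% and 3736 bases, so the difference in length was also found among called genes at large. The difference in GC content was not found there at that size. The 14 members not called had medians of 47.7% and 2964 bases. A correction for GC content left 11 higher and 6 lower calls, where 25.7% and 25.2% of all genes were called, and a correction for length left 10 and 6, where 24.6% and 25.2% were. The part of base composition and length in the single calls beyond these corrections was not tested.

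The 11 genes that rose also shared a pattern among libraries, which was noticed after their values were seen. In scaled FPKM, Al replicate 3 was the lowest Al library in 10 of the 11, the exception being Plk3. Control replicate 3 was the highest control in 10 of the 11, the exception being Bbc3. Over all 3375 genes called higher these positions were taken in 54.8% and 44.4%. Cdkn1a showed both, with 239 in Al replicate 3 and 129 in control replicate 3. For some genes the Al position depended on the size factor, which was 0.932 for Al replicate 3 against 0.802 and 0.815. On FPKM as deposited this library was not the lowest for Mdm2 (28.5, 33.1 and 28.6), Gtse1 (73.9, 80.6 and 74.6), Bax (59.9, 60.5 and 63.0) or Pidd1 (8.53, 8.88 and 9.56). It stayed the lowest for Btg2, Plk2, Bbc3, Aen, Phlda3 and Sesn2. The median log2 difference of the 31 genes from the control mean was 0.48, 0.46 and 0.25 in Al replicates 1, 2 and 3. None of the 17 calls among the members was lost when any 1 library was left out.

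Promoter sequences were looked at because p53 acts through a known DNA element, a pair of half-sites. RefSeq windows on GRCm38.p6, from 250 bases before to 50 bases after a start site, were held for 25 of the 33 genes and for Cdkn1a, and not for Zmat3, Ddb2, Pmaip1, Rrm2b, Perp, Xpc, Trp53inp1 and Tnfrsf10b. The letters of the p53 half-site, a palindromic pattern of 10 bases that reads the same on both strands, were searched with overlaps allowed. They occurred in 11 of the 25 genes (44%), in 9.55% of all 27025 genes with a window and in 8.2% of the tested genes with a window. The members were chosen as known genes of p53, so this difference comes with the choice and says nothing about the 6 libraries. By call, the half-site occurred in 4 of 11 genes that rose (Mdm2, Gtse1, Bax and Aen), in 1 of the 2 genes that fell and had a window (Sesn1), and in 6 of 12 that were not called (Trp53, Ccng1, Gadd45a, Ckap2, Ei24 and Polk). These shares, 36.4%, 50% and 50%, rest on few genes and were not compared by a test. Cdkn1a held 2 half-sites, starting at -73 and -51 from the start site of its window, and Mdm2 held 1 at -186. That start site of Cdkn1a is the first base of the whole RefSeq gene (chr17:29090979-29100722). The windows of Cdkn1a (chr17:29090729-29091028, plus strand) and Mdm2 (chr10:117710709-117711008, minus strand) are shown whole, because they are the arrest gene and the feedback gene of the pathway. Stretches of 60 bases are shown for the other genes that rose, Gtse1 (chr15:85859930-85859989, plus strand), Bax (chr7:45467065-45467124, minus strand) and Aen (chr7:78895912-78895971, plus strand), for Sesn1, which fell (chr10:41887241-41887300, plus strand), and for Trp53 (chr11:69580259-69580318, plus strand) and Ccng1 (chr11:40755437-40755496, minus strand), which were not called. Capitals mark the half-site, and each sequence runs 5′ to 3′ on the strand of its gene.
Cdkn1a: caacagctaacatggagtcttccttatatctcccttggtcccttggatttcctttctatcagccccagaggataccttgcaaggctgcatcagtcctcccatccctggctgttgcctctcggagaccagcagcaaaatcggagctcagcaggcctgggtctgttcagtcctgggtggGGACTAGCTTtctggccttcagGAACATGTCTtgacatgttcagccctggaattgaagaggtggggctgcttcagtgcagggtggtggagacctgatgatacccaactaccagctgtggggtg
Mdm2: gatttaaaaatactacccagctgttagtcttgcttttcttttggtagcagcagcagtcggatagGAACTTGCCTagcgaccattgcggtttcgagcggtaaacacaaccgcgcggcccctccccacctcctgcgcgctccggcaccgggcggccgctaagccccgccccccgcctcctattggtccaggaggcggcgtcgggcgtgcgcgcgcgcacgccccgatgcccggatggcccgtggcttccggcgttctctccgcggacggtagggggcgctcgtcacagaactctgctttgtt
Gtse1: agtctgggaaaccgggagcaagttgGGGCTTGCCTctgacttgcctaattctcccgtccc
Bax: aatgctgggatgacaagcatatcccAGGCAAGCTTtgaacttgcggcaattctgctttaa
Aen: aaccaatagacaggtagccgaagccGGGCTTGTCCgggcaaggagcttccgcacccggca
Sesn1: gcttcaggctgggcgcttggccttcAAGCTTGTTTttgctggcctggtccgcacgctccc
Trp53: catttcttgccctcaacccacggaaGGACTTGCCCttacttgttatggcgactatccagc
Ccng1: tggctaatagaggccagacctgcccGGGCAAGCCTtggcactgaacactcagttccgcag
A match of letters is a description and not a bound site, and an element may lie outside a window: that of Mdm2 is known in the first intron of the gene.

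Genes around the pathway were read from further lists. Of 21 tested genes among other p53 targets, 10 rose (47.6%) and 1 fell (4.76%), beside 26.2% and 24.4% of all genes, with a median log2 fold change of 0.55. Epha2, a receptor tyrosine kinase, was at 19.8, 19.1 and 26.5 scaled FPKM in control and 91.8, 114 and 132 in Al (log2 fold change 2.36, adjusted P = 1.5e-05). Steap3, a metalloreductase, had a log2 fold change of 0.61. Steap3 was not called on FPKM as deposited (0.12), as TPM (-0.18), after quantile normalization (0.18) or length correction (0.55), without control replicate 2 (0.58) or without Al replicate 2 (0.56). Tigar, a regulator of glycolysis, was the 1 that fell, from 3.14, 2.59 and 3.61 to 1.85, 1.04 and 1.93 (log2 fold change -0.95, adjusted P = 0.0101). As TPM, 6 rose and 8 fell, where 9.31% of all genes rose and 53.1% fell.

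Among the regulators and cofactors of p53, the genes named by their level among those that fell were Atm, Atr and Chek2, which encode kinases of the DNA damage response. They had log2 fold changes of -0.61, -1.37 and -1.21 (adjusted P = 0.0035, 0.000563 and 0.000867), and Atr went from 4.49, 4.30 and 4.11 scaled FPKM to 1.27, 2.21 and 1.44. Atm was not called without Al replicate 1 (-0.54), without Al replicate 2 (-0.55), after length correction (-0.35) or quantile normalization (-0.40), or with a pseudocount of 1 (-0.53). Usp7, a deubiquitinase of Mdm2 and p53, Ppm1d, a phosphatase that is itself a p53 target and turns the response off, and the deacetylase gene Sirt1 had log2 fold changes of 0.88, 0.95 and 0.62. None of these 3 was called on FPKM as deposited (0.39, 0.46 and 0.15) or as TPM (0.10, 0.17 and -0.14). Sirt1 was also not called without control replicate 2 (0.51) or Al replicate 2 (0.57), after length correction (0.50) or with a pseudocount of 1 (0.50). Over this list of regulators and cofactors, 3 of 19 tested genes rose (15.8%) and 5 fell (26.3%), beside 26.2% and 24.4% of all genes, with a median log2 fold change of -0.10.

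Cell cycle genes that p21 is known to repress through the DREAM complex gave counts that turned with the scaling. Of 24 tested, 11 rose (45.8%) and 2 fell (8.33%) with size factors, beside 26.2% and 24.4% of all genes, and the median log2 fold change was 0.50. On FPKM as deposited 2 rose and 5 fell, where 14.0% and 42.0% of all genes did, and as TPM 0 rose and 8 fell, where 9.31% and 53.1% of all genes did. Mcm5, a subunit of the replication helicase, went from 65.7, 68.3 and 64.6 scaled FPKM to 107, 110 and 118, a log2 fold change of 0.75 that was 0.26 on FPKM as deposited, 0.21 after quantile normalization and -0.03 as TPM, none of them called. Ube2c, a ubiquitin-conjugating enzyme of mitotic exit, and Plk1, a mitotic kinase, were at 1.06 and 0.75, and neither was called on FPKM as deposited (0.57 and 0.26), after quantile normalization (0.58 and 0.29) or as TPM (0.27 and -0.04). Mybl2, a transcription factor of the cycle, and Ccnb2, cyclin B2, fell, with log2 fold changes of -0.96 and -1.02 (adjusted P = 0.000978 and 0.00156).

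Stress genes under ATF4 and CHOP, which share targets such as Sesn2 and Gdf15 with p53, had 2 of 13 tested genes higher (15.4%) and 4 lower (30.8%), beside 26.2% and 24.4% of all genes, with a median log2 fold change of -0.22. Trib3, a pseudokinase, fell from 92.8, 102 and 87.1 scaled FPKM to 17.2, 15.3 and 18.2 (log2 fold change -2.47, adjusted P = 4.03e-06), and Chac1, a glutathione-degrading enzyme, had a log2 fold change of -1.32. Nupr1, a stress-induced nuclear protein, was at -0.81 and was not called without Al replicate 2 (-0.57). Cebpb, a C/EBP transcription factor, and Ppp1r15a, a phosphatase subunit that restores translation, rose, with log2 fold changes of 1.11 and 0.89, and neither was called as TPM (0.32 and 0.10) or after quantile normalization (0.43 and 0.47), nor was Ppp1r15a on FPKM as deposited (0.40).

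**Figure D3:**
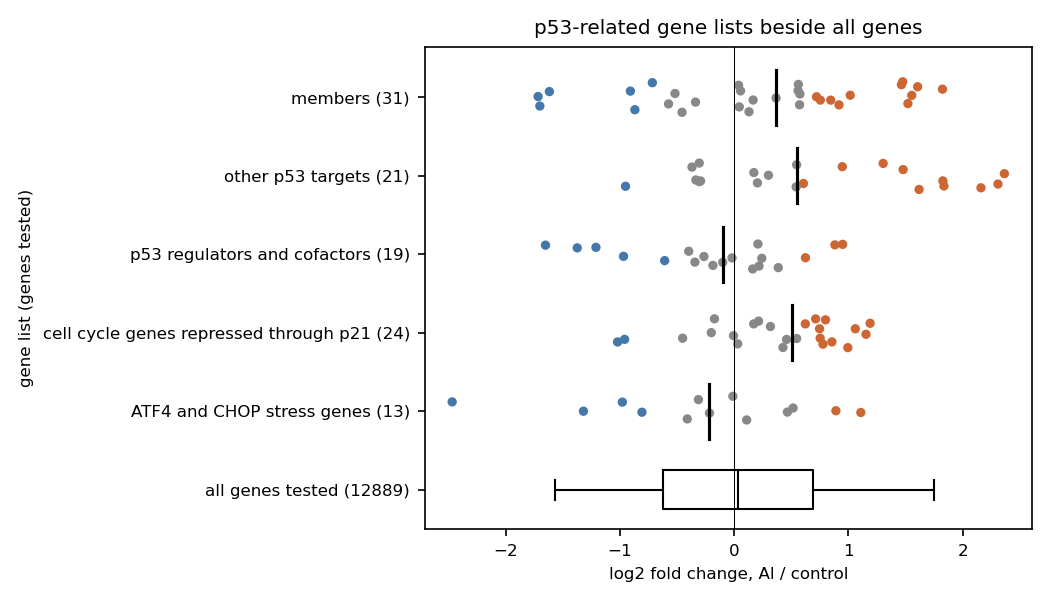
Each point is the log2 fold change (Al / control) of a gene, orange where called higher, blue where called lower and grey where not called, with a black line at the median of each list; the box of all 12889 genes spans the quartiles and its whiskers the percentiles 5 to 95. Values are with size factors. The medians of the p53 pathway genes (0.37), the other p53 targets (0.55) and the cell cycle genes (0.50) lie to the right of that of all genes (0.03), and the regulators (-0.10) and the ATF4 and CHOP genes (-0.22) to the left.

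The scaling decided several of the calls. On FPKM as deposited 6 of the 31 genes were called higher and 10 lower, where 14.0% of all genes were higher and 42.0% lower, and the median was -0.12 while that of all genes was -0.43. As TPM 6 were higher and 14 lower, where 9.31% of all genes were higher and 53.1% lower, with medians of -0.42 and -0.72. The share of higher calls among all calls of the 12889 genes was 51.8% with size factors, 25.0% as deposited and 14.9% as TPM. Relative to the median of all genes, the pathway's median lay 0.34 higher with size factors, 0.31 higher as deposited and 0.30 higher as TPM. These scalings moved every gene nearly alike, so the closeness of these values comes with the method and is no test of the offset. Where genes could move by unlike amounts, the offset was 0.26 with quantile normalization, 0.24 with length correction and 0.33 with GC correction. It was 0.24 with no filter and 0.46 without control replicate 3. Mdm2, Gtse1, Plk2, Pidd1, Phlda3 and Btg2 were called higher, and Rrm2b, Ddb2, Dram1 and Trp53inp1 lower, under all 19 settings.

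**Figure D4:**
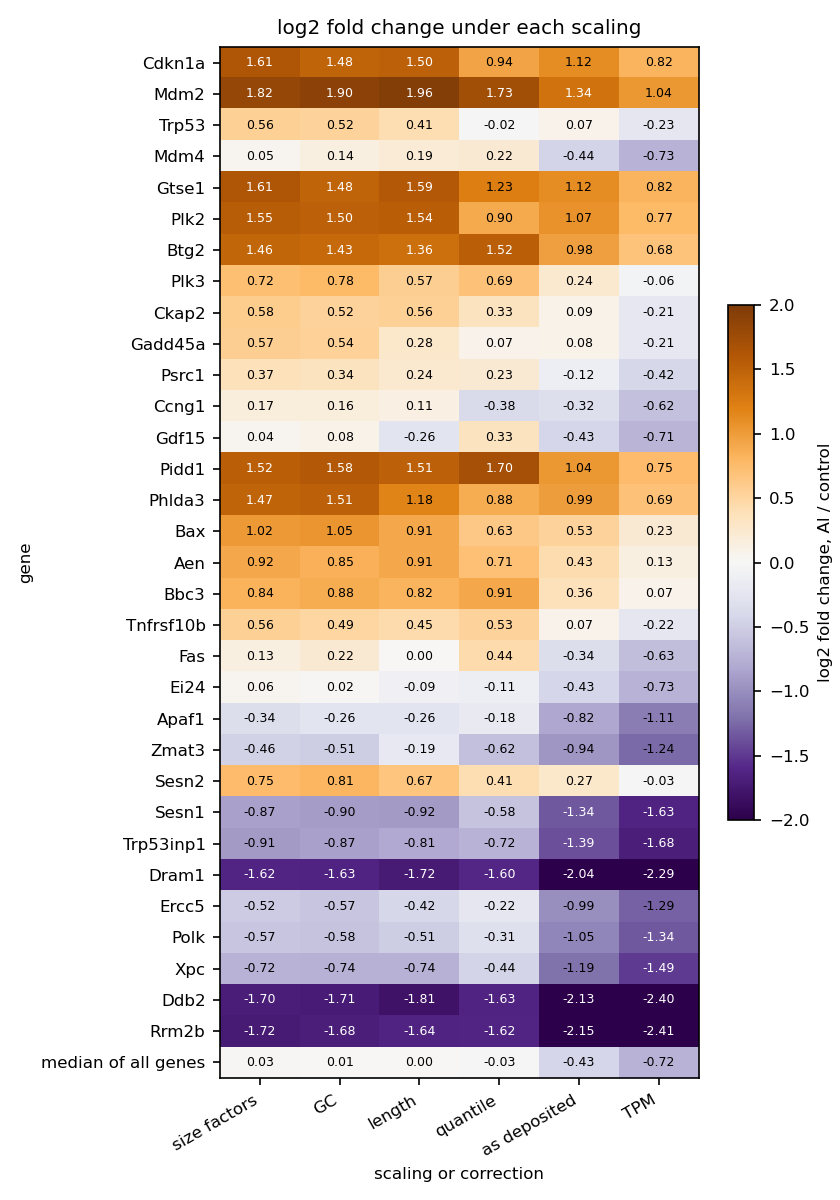
The log2 fold change (Al / control) of Cdkn1a and each tested p53 pathway gene, with the median of all genes in the last row, is given under size factors, GC correction, length correction, quantile normalization, FPKM as deposited and TPM, with color from purple (lower in Al) to orange (higher). Cdkn1a, Mdm2 (1.82 with size factors and 1.04 as TPM), Gtse1, Plk2, Btg2, Pidd1 and Phlda3 stay orange throughout, and the repair genes stay purple. Trp53, Mdm4, Ccng1, Plk3, Gadd45a, Gdf15, Ckap2, Psrc1, Fas, Tnfrsf10b, Ei24 and Sesn2 are above 0 with size factors and below 0 as TPM.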

How the data were processed

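RNA was measured in 6 input libraries of HT22 cells, 3 control and 3 Al. Per the labels and the methods of the study, libraries were made with a stranded mRNA kit. The authors removed low-quality and ribosomal reads with Trimmomatic and SortMeRNA and aligned the rest with HISAT2 to GRCm38/mm10; the submitters' processing notes list fastp, HISAT2, HTSeq and GRCm39 instead, and the table holds no coordinates. The deposited values are FPKM per gene symbol, with no scaling between libraries. The authors called changed genes with DESeq2, which was not run here.

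Values of a gene were whole multiples of 1 read in 17687 of 17688 genes above 0 (tolerance 1e-06 reads), which gave the depths and, for limma voom as an alternative, the reads. The test was limma 3.58.1 in R 4.3.3 (lmFit, eBayes with trend) on the log2 of scaled FPKM with a pseudocount of 0.1, for 12889 genes whose mean FPKM reached 0.1. Fold changes are on that scale, which understates low genes. Size factors were medians of ratios over genes whose mean FPKM reached 1, and P values were adjusted over all genes tested (Benjamini-Hochberg). The thresholds are those the study states. The procedure was tested on simulated data. The 19 alternative settings were FPKM as deposited, TPM, quantile normalization, pseudocounts of 1 and 0.01, a stricter filter and none, no trend, a replicate block, adjusted P values, voom, corrections for length and GC content, and each library left out in turn; adjusted P values without a fold minimum were read as a count. The replicates are called biological, but no label says that they were separate cultures, so P values measure only the spread between these samples.

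The members and gene lists were chosen with earlier results of these data known. Named genes were all members, Cdkn1a and, of each further list, up to 3 called each way with the highest mean level. A gene named by this rule is not reported here. The gene Cop1 is listed under its older symbol Rfwd2. GC content came from GENCODE transcripts, matched for 96.6% of symbols. Gene length was not annotated but recovered from the FPKM values, as the shortest whole length that made the reads of every library whole. Copies of at least 90% identity over 200 bases and exon overlaps of at least 100 bases were found with minimap2 2.31-r1302 and the annotation. Positions are RefSeq on GRCm38.p6. Python 3.11.15, numpy 2.4.6, pandas 2.3.3 and scipy 1.17.1 handled the tables.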

Additional observations from a re-analysis of the deposited data

How the results depend on the processing

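Scaling between libraries limits the calls: the median of all genes shifted by -0.46 on FPKM as deposited and by -0.75 as TPM, and the cause was not tested. Genes with few reads in the Al libraries, such as Dram1, Ddb2 and Rrm2b, were measured less precisely there. Genes close to a log2 fold change of 0.58 in either direction crossed that threshold easily.

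On FPKM as deposited, members called higher and lower were 6 and 10, with a median of -0.12, regulators 0 and 9, other targets 8 and 6, cell cycle genes 2 and 5, and ATF4 and CHOP genes 1 and 7, where 14.0% of all genes were higher and 42.0% lower. As TPM these were 6 and 14, with a median of -0.42, 0 and 12, 6 and 8, 0 and 8, and 0 and 9, where 9.31% and 53.1% of all genes were. With quantile normalization cell cycle genes were 6 and 4 and ATF4 and CHOP genes 0 and 7, where 22.2% and 24.2% of all genes were, and the members' median 0.23; length correction gave 0.24. An adjusted P with no fold minimum gave 10 lower members and 2 lower other targets, where 29.9% of all genes were lower. Reversed on FPKM as deposited were Mdm4 (-0.44), Ccng1 (-0.32), Gdf15 (-0.43), Psrc1 (-0.12), Fas (-0.34) and Ei24 (-0.43). Reversed as TPM were Trp53 (-0.23), Mdm4 (-0.73), Ccng1 (-0.62), Plk3 (-0.06), Gadd45a (-0.21), Gdf15 (-0.71), Ckap2 (-0.21), Psrc1 (-0.42), Fas (-0.63), Tnfrsf10b (-0.22), Ei24 (-0.73), Sesn2 (-0.03), Sirt1 (-0.14), Steap3 (-0.18), Mcm5 (-0.03) and Plk1 (-0.04). Quantile normalization reversed Trp53 (-0.02), Ccng1 (-0.38) and Ei24 (-0.11), and length correction Gdf15 (-0.26) and Ei24 (-0.09). With each library left out in turn, 11 to 14 members were higher and 6 to 8 lower, with medians of 0.32 to 0.48, where 24.8% to 27.1% of all genes were higher and 23.0% to 25.7% lower, and the uncalled Mdm4 (-0.08 to 0.13), Gdf15 (-0.31 to 0.48), Fas (-0.01 to 0.25) and Ei24 (-0.03 to 0.14) crossed 0.

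The replicate numbers did not pair the samples: same-numbered deviations correlated at -0.0329, -0.0257 and -0.0733, and 0 of 6 libraries correlated best with their own number. A fit with a replicate block called 11 members higher and 6 lower, and 3352 and 3123 of all genes.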
